A study of Homo sapiens with 18 samples.

Results

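The transcriptomes of LNCaP cells treated with 2-77 were set against those of cells treated with P-16. LNCaP is a human prostate adenocarcinoma line of luminal character that grows in response to androgen. The comparison used 6 of the 18 RNA sequencing libraries of the series, 3 from cells held for 72 h with 2-77 at 1 µM and 3 from cells held for 72 h with P-16 at 10 µM, and it covered all 20145 genes of the deposited table. Libraries were chosen by their treatment labels alone. The 3 libraries of cells given DMSO, the vehicle, for the same time supply the level of each gene without compound. All groups came from the same line in medium with serum, and no genetic change is named for any of them. The labels write P-16 as PB16 in one place, and they state no target for either compound. By its title the series is about inhibitors selective for the BRD7 bromodomain. BRD7 is one of the subunits that define PBAF, a complex that remodels chromatin. The doses of 2-77 and P-16 differed, so in every difference below compound and dose cannot be told apart. Nothing states whether a group's 3 libraries stem from separate cultures, so p-values measure only the spread between these libraries.

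The 2-77 libraries held 22950907 to 30626332 counts, the P-16 libraries 18130330 to 24770717 and the DMSO libraries 17210743 to 22611573. Ribosomal RNA took 0.831% to 2.09% of counts with 2-77, 0.668% to 1.62% with P-16 and 0.65% to 1.62% with DMSO. One library, 2-77 replicate 3, stood apart from its group. Its squared differences from 2-77 replicates 1 and 2 were 5.02 and 5.59 times those of counting noise (chi-square per degree of freedom, ribosomal RNA left out). That ratio was 1.87 between replicates 1 and 2, 2.27 to 2.55 between P-16 libraries and 2.25 to 3.03 between DMSO libraries. The 2.09% of ribosomal RNA was also in 2-77 replicate 3. Without that library, 136 of the 142 called genes among those tracked by name kept their call and direction. The others are BCYRN1, HEXIM1, MT1F, NFKB1, SMARCD2 and SQLE. Luminal markers were present in all 9 libraries: KRT8 averaged 483 ± 15.9 CPM with 2-77, against 422 ± 1.98 CPM with P-16 and 410.5 ± 9.34 CPM with DMSO (SD, n = 3 each), and KRT18, HOXB13 and FOLH1 passed the filter on low counts. Of 6 basal markers, KRT14 and DST passed it.

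Androgens are steroid hormones that act through response elements in DNA and turn on genes of the luminal prostate programme, among them the kallikreins KLK2 and KLK3. The aryl hydrocarbon receptor binds planar aromatic compounds and induces the cytochromes CYP1A1 and CYP1A2. The transcription factor MondoA, with its partner MLX, responds to glucose phosphates and induces TXNIP and ARRDC4, which restrain glucose uptake. ATF4 is the effector of the integrated stress response and induces genes of amino acid supply and of stress, such as CHAC1 and TRIB3.

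Levels are CPM, counts scaled to a common library total. A ± after a CPM value is the SD of 3 libraries. Differences are log2 values of 2-77 minus P-16 with ± the standard error (SE), so that a negative value means a lower level with 2-77. A gene is called higher or lower where the adjusted p of edgeR's quasi-likelihood test was under 0.05. Of 15422 genes tested, 3449 (22.4%) were called, 1633 higher (10.6%) and 1816 lower (11.8%) with 2-77. With library totals in place of the scaled totals, higher genes were 60.5% of those called, in place of 47.3%. Most of these differences were small, and 88.4% of the called genes differed by less than 1.5-fold. At least 2-fold differences were found for 154 genes (0.999%), 53 higher with 2-77 (0.344%) and 101 lower (0.655%), and at least 4-fold differences for 5 higher and 33 lower. Over all genes the median difference was 0.0065. Without 2-77 replicate 3, 2732 genes were called. Against DMSO, 6280 genes (40.7%) were called with 2-77 and 3699 (24%) with P-16, and these comparisons share the DMSO libraries.

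In a principal component analysis of the 9 libraries, the first component, with 45.1% of the variance, placed the 2-77 libraries between -28.9 and -27.7, the P-16 libraries between -4.47 and -3.75 and the DMSO libraries between 31.1 and 33.5. The second, with 13.0%, placed the P-16 libraries between -22.6 and -13.4, against 9.16 to 13.9 for 2-77 and 3.11 to 9.48 for DMSO. The 3 groups did not overlap on the first component, and on the second the P-16 libraries stood apart from both others.

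**Figure D1:**
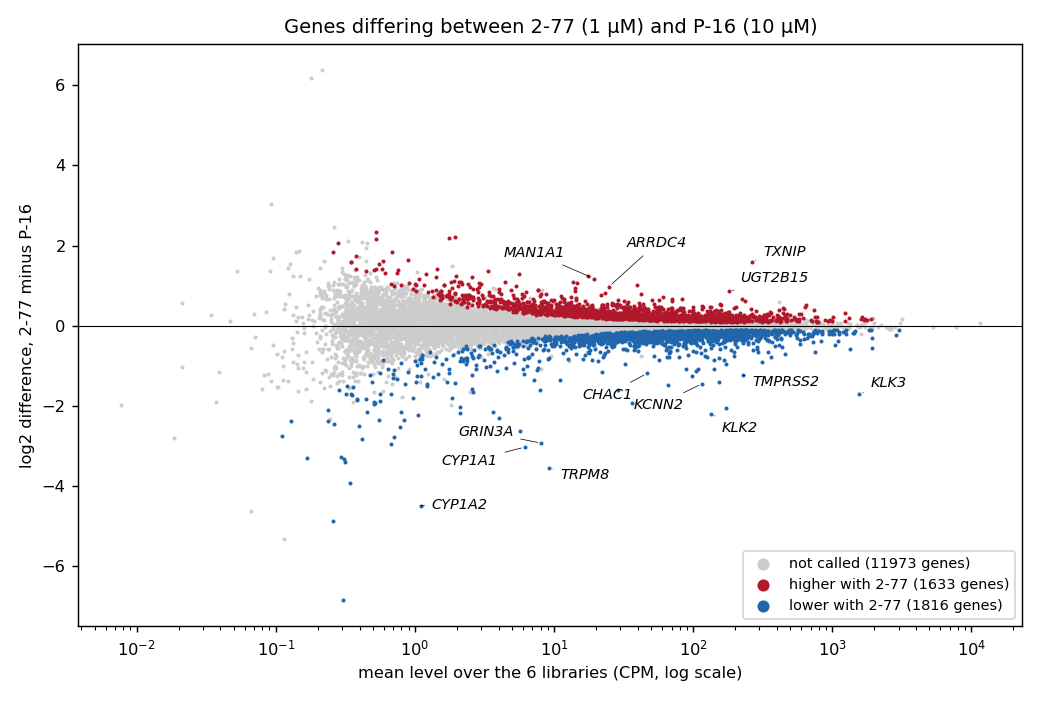
Each point is 1 of the 15422 genes tested, placed by its mean level over the 6 libraries of 2-77 and P-16 (CPM, log axis) and by its log2 difference, 2-77 minus P-16. Red points were higher and blue points lower with 2-77 (adjusted p under 0.05), grey points were not called, and the largest differences of well expressed genes lie on the lower side, among them TRPM8, GRIN3A, KLK2 and CYP1A1.

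Most androgen-induced genes tested were lower with 2-77 than with P-16. KLK3, which encodes prostate-specific antigen, had 749.7, 752 and 709.6 CPM with 2-77, against 2386, 2394 and 2416 CPM with P-16 and 4325, 4232 and 4276 CPM with DMSO. All 3 libraries with 2-77 lay below all 3 with P-16, and these below all 3 with DMSO. KLK3 was thus 3.25-fold lower with 2-77 than with P-16 (-1.70 ± 0.032, edgeR adjusted p = 3.16e-26). In bulk libraries, fewer cells that express a gene and less RNA per cell cannot be told apart. Its neighbour KLK2, a related secreted protease, had 51, 46.5 and 46.2 CPM with 2-77, against 222, 222 and 219 CPM with P-16 and 609, 591 and 589 CPM with DMSO. Here too the groups were apart, with 2-77 lowest (-2.20 ± 0.039, adjusted p = 1.84e-26). In hg38 KLK3 lies on chromosome 19 from 50854915 to 50860764 on the plus strand and KLK2 on chromosome 19 from 50873433 to 50880567 on the plus strand.

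The sequences just upstream of both genes are shown because the 2 kallikreins share a stretch that matches the core of the androgen response element, and both were far lower with 2-77. They are the 250 bases before the start site from RefSeq (GRCh38.p14, plus strand, chr19:50854665-50854914 for KLK3 and chr19:50873189-50873438 for KLK2). Capitals mark the match to the half-sites GNACA and GTNCT with 4 bases between them.
KLK3: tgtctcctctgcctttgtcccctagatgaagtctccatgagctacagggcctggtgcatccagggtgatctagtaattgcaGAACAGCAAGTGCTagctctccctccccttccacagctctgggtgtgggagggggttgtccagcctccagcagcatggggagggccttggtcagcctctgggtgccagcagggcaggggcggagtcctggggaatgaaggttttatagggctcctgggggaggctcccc
KLK2: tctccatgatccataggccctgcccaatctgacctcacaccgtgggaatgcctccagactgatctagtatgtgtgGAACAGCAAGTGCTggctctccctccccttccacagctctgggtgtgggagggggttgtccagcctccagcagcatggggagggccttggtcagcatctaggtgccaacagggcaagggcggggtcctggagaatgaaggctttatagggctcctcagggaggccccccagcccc
The match runs from base -169 to -156 in KLK3 and from -175 to -162 in KLK2, counted from the start site. The 15-base stretch that begins at the base before the match is AGAACAGCAAGTGCT in KLK3 and GGAACAGCAAGTGCT in KLK2, a single substitution (A1G, KLK3 first, counted from the stretch's 5′ end). Both strands were searched, and the motif occurred in 0.592% of 35116 windows of this length. Of the 39 androgen-induced genes with a window in the table, KLK2 and KLK3 held it. A match is a description of letters, and binding was not measured.

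Of 57 listed androgen-induced genes, 54 passed the filter on low counts. ORM1 and SLC26A3 did not pass it, and FAM105A was not analysed here. With 2-77, 35 of these 54 were lower and 2 higher, against 11.8% lower and 10.6% higher among all genes tested. The list's median difference was -0.40, beside 0.0065 for all genes. Without 2-77 replicate 3, 38 members were called, against 37 with it. Set against DMSO, its median was -1.29 with 2-77 and -0.84 with P-16, where 49 and 47 of the 54 were lower (20.2% and 11.6% of all genes).

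TMPRSS2, the membrane serine protease whose promoter is often fused to ERG in prostate cancer, had 141, 138 and 129.8 CPM with 2-77, against 322, 312 and 331 CPM with P-16 and 805, 809 and 805 CPM with DMSO. All its 2-77 libraries lay below all P-16 libraries, and these below DMSO (-1.24 ± 0.037). TRPM8, the cold-sensing cation channel, had 1.39, 1.77 and 1.22 CPM with 2-77, against 17.4, 17.1 and 16.8 CPM with P-16 and 31.9, 34.7 and 36.2 CPM with DMSO. It showed the largest negative difference among the genes selected by size (-3.55 ± 0.12, adjusted p = 1.69e-19), and its 3 libraries with 2-77 were all under 2 CPM.

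Other members far lower with 2-77 were TARP, a transcript of the T cell receptor gamma locus that prostate cells make (-2.62 ± 0.13), KCNN2, a calcium-activated potassium channel (-1.44 ± 0.041), SLC45A3, the prostein transporter (-1.26 ± 0.051), and KLK4, another kallikrein protease (-1.11 ± 0.057). KCNN2 averaged 62.4 ± 2.78 CPM with 2-77, against 170.0 ± 5.36 CPM with P-16 and 247 ± 5.75 CPM with DMSO. ELOVL5 and ELOVL7, which lengthen fatty acids, differed by -0.53 ± 0.052 and -0.71 ± 0.088. The cochaperone FKBP5 and the TGF-beta feedback gene PMEPA1 were only slightly lower with 2-77 (-0.23 ± 0.045 and -0.22 ± 0.038), although against DMSO PMEPA1 differed by -2.27 with 2-77 and -2.04 with P-16. FKBP5 had 49.8, 49 and 50.3 CPM with 2-77, against 60.0, 58.1 and 56.2 CPM with P-16 and 104, 96.7 and 96.3 CPM with DMSO. Its 2-77 and P-16 libraries did not overlap, but they lay close together and far from DMSO.

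Some androgen-induced genes did not pass the test between the compounds. For CAMKK2, a kinase upstream of AMPK, the difference was -0.06 ± 0.038, with a 95% interval (not adjusted for the number of genes) of -0.14 to 0.02, while against DMSO it was -0.57 with 2-77 and -0.51 with P-16. The zinc finger gene ZBTB10 differed by -0.01 ± 0.083, with an interval of -0.18 to 0.17, and against DMSO by -0.95 with 2-77 and -0.94 with P-16. ACP3, which encodes prostatic acid phosphatase, and NDRG1, a stress- and androgen-responsive gene, were the members higher with 2-77. ACP3 averaged 185 ± 7.65 CPM with 2-77, against 127 ± 3.64 CPM with P-16 and 131 ± 2.55 CPM with DMSO (0.55 ± 0.042, adjusted p = 5.02e-11), and NDRG1 differed by 0.27 ± 0.036. STEAP4, a metalloreductase, had only 4, 3 and 7 counts with 2-77, against 0, 4 and 0 counts with P-16 and 8, 18 and 12 counts with DMSO, and it did not pass (adjusted p = 0.302).

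**Figure D2:**
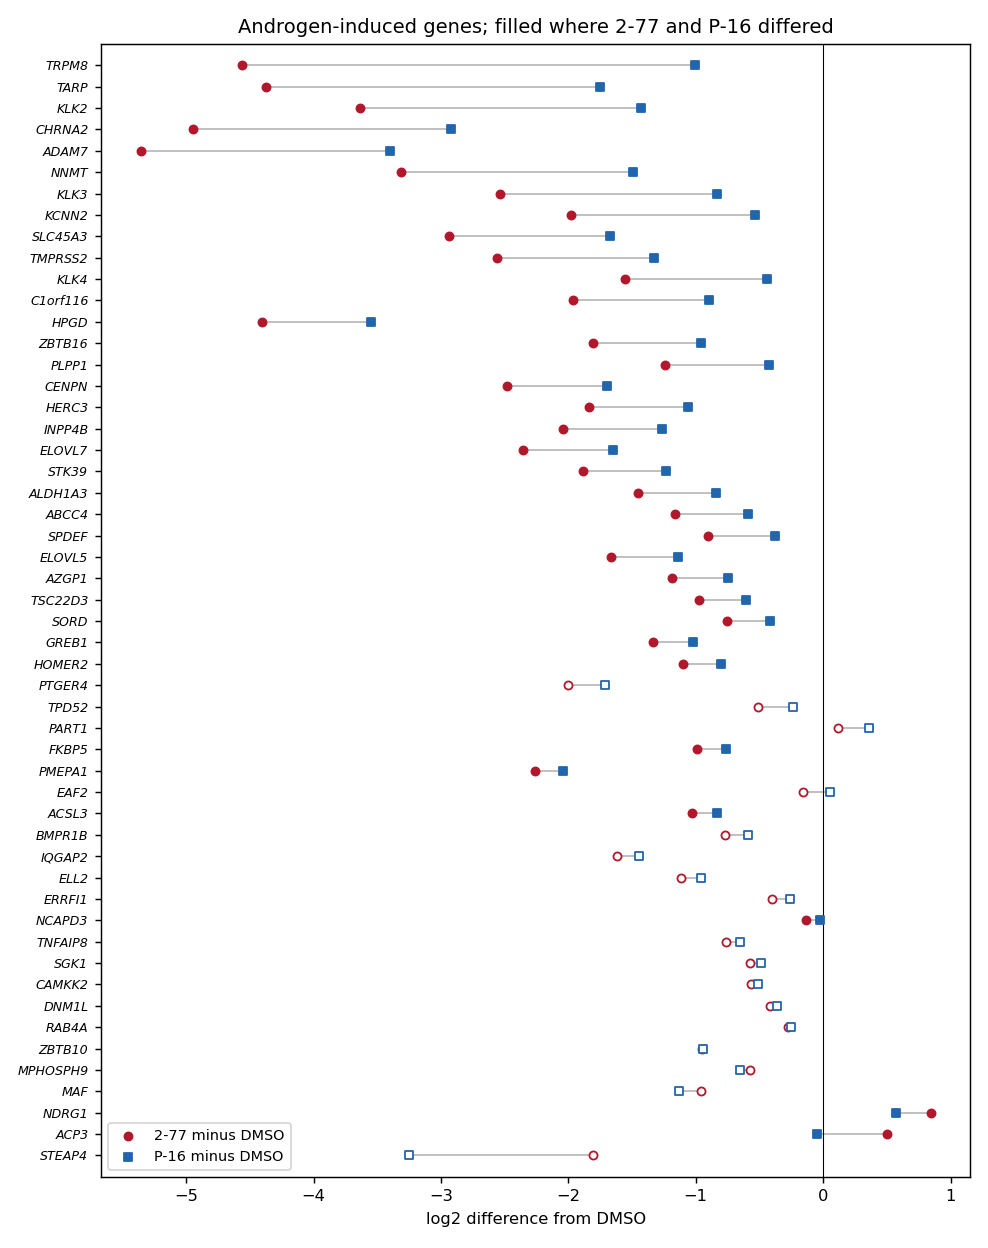
Log2 difference from DMSO of 52 of the androgen-induced genes tested, with 2-77 (red circles) and with P-16 (blue squares), ordered by the difference between the compounds. Filled symbols mark the 35 of them called between 2-77 and P-16, and most of them lie further left with 2-77, while ACP3 and NDRG1 lie further right.

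Of 22 genes that androgen represses that passed the filter, 11 were higher and 4 lower with 2-77, with a median of 0.22, where 10.6% and 11.8% of all genes were higher and lower. UGT2B15, which attaches glucuronic acid to androgens and so inactivates them, had 237, 221 and 243 CPM with 2-77, against 135, 127 and 126 CPM with P-16 and 72.3, 68.2 and 73.5 CPM with DMSO. The 3 groups were apart, with 2-77 highest (0.86 ± 0.044, adjusted p = 3.08e-15). Its close paralog UGT2B17 had 275, 270.2 and 274 CPM with 2-77, against 282, 289 and 278 CPM with P-16 and 133, 130.3 and 123 CPM with DMSO. There the 2-77 libraries lay just under the P-16 libraries and both far above DMSO, and the difference of -0.05 ± 0.037 did not pass, with an interval of -0.13 to 0.03. UGT2B11, a further paralog, had 9.82, 10.1 and 10.7 CPM with 2-77, against 5.49, 5.44 and 6.75 CPM with P-16 and 18.9, 18.5 and 17.4 CPM with DMSO. It was higher with 2-77 than with P-16 (0.80 ± 0.093, adjusted p = 1.6e-07), but both compounds lay below DMSO (differences of -0.84 with 2-77 and -1.64 with P-16). UGT2B genes are near-identical in places, so counts may be split between them in a way the sources do not state. The kappa opioid receptor gene OPRK1 averaged 20.1 ± 1.77 CPM with 2-77, against 13.1 ± 1.05 CPM with P-16 and 2.79 ± 0.761 CPM with DMSO (0.61 ± 0.1). SESN3, a stress-induced inhibitor of mTORC1 signalling, and TRIM45, a ubiquitin ligase, differed by 0.61 ± 0.077 and 0.60 ± 0.091. CAMK2N1, an inhibitor of CaM kinase II, did not pass (-0.05 ± 0.042, interval -0.14 to 0.03), although against DMSO it differed by 1.21 with 2-77 and 1.27 with P-16. PEG3, an imprinted zinc finger gene, went the other way and averaged 116.5 ± 3.99 CPM with 2-77, against 227 ± 1.33 CPM with P-16 and 320.3 ± 12.9 CPM with DMSO (-0.96 ± 0.047, adjusted p = 9.36e-16). MYC, listed as androgen-repressed, averaged 348 ± 14.8 CPM with 2-77, against 424 ± 11.7 CPM with P-16 and 475 ± 13.8 CPM with DMSO (-0.29 ± 0.042).

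Some genes were high with P-16 and low with 2-77 and with DMSO. CYP1A1, a cytochrome that oxidises aromatic hydrocarbons, had 1.46, 1.30 and 1.26 CPM with 2-77, against 10.9, 11.6 and 10.4 CPM with P-16 and 0.349, 0.759 and 0.802 CPM with DMSO. The P-16 libraries stood far above all 6 others (-3.03 ± 0.19, adjusted p = 3.41e-13), and against DMSO the difference was 1.04 with 2-77 and 4.06 with P-16. CYP1A2, its neighbour on chromosome 15 and a relative with overlapping substrates, had 2, 2 and 3 counts with 2-77, against 51, 45 and 39 counts with P-16 and 4, 1 and 1 counts with DMSO. From the summed counts of 7 with 2-77 and 135 with P-16, CYP1A2 was 23.7-fold lower with 2-77, with an exact 95% interval of 11.2 to 60.0 that covers counting error only.

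The sequence upstream of CYP1A1 is shown because the gene separates P-16 from the other groups and because its regulation by the aryl hydrocarbon receptor is a textbook case. It is the 250 bases before the start site (RefSeq, GRCh38.p14, minus strand of chr15:74725529-74725778), with GCGTG, the core of the dioxin response element, in capitals.
CYP1A1: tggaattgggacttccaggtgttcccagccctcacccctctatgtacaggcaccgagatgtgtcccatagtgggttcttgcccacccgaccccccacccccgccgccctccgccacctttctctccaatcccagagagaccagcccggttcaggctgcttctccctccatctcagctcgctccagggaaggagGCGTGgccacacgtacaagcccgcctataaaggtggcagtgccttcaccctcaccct
The core stands at bases -57 to -53 and, on both strands, nowhere else in this window. Bases further upstream were not searched, and binding of the receptor to this site was not measured. So short a motif occurs in 32.2% of all windows of this length, and in 4 of the 8 tested genes on the list of aryl hydrocarbon receptor genes.

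Of the 11 genes on that list, 8 passed the filter, 4 were lower and 2 higher with 2-77, and the median was 0.016. Lower and higher genes made up 11.8% and 10.6% of all genes. CYP1B1, AHRR and ALDH3A1 did not pass the filter. Those lower besides the cytochromes were NQO1, a quinone reductase, and NFE2L2, which encodes NRF2, and NQO1 is also on the list of NRF2 targets. NQO1 had 93.5, 88 and 88.9 CPM with 2-77, against 123, 118 and 118 CPM with P-16 and 71.6, 70.9 and 72.1 CPM with DMSO. The P-16 libraries were highest and the DMSO libraries lowest, with no overlap (-0.41 ± 0.05). TIPARP, an ADP-ribosyltransferase that the receptor also induces, did not pass (0.26 ± 0.12, interval 0.01 to 0.50). AHR, the receptor, and ARNT, its partner, were higher with 2-77 (0.57 ± 0.13 and 0.28 ± 0.05). AHR averaged 9.88 ± 0.674 CPM with 2-77, against 6.65 ± 0.494 CPM with P-16 and 7.42 ± 1.56 CPM with DMSO.

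Targets of NRF2, the factor that induces antioxidant and reductive enzymes, were lower with 2-77 in 12 of 16 tested cases and higher in 1. Among all genes, 11.8% were lower and 10.6% higher, and the list's median was -0.21. HMOX1, heme oxygenase, had 10.1, 12.6 and 12.2 CPM with 2-77, against 19.9, 21.7 and 20.3 CPM with P-16 and 15.5, 16.7 and 13.5 CPM with DMSO. No 2-77 library reached a DMSO library, and every P-16 library exceeded them (-0.84 ± 0.092, adjusted p = 6.28e-08). Against DMSO, HMOX1 differed by -0.40 with 2-77 and 0.44 with P-16. The cystine transporter gene SLC7A11, also an ATF4 target, averaged 119.8 ± 14.4 CPM with 2-77, against 216 ± 2.26 CPM with P-16 and 260.4 ± 18.9 CPM with DMSO (-0.85 ± 0.1), so here the lower level with 2-77 was also a level below DMSO. ME1 and TALDO1, enzymes of NADPH supply and the pentose phosphate route, differed by -0.55 ± 0.047 and -0.32 ± 0.042. FTL, ferritin light chain, was the member higher with 2-77 (0.12 ± 0.041), a call lost without 2-77 replicate 1 or 2 or P-16 replicate 1 or 2, at 0.11, 0.09, 0.12 and 0.11. Over this list against DMSO, 3 members were higher and 6 lower with 2-77, and 10 higher and 0 lower with P-16. Higher and lower genes were 20.5% and 20.2% of all genes in the first of these comparisons, and 12.4% and 11.6% in the second.

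Metallothioneins, small proteins that bind zinc and copper, formed a further group. Of 10 listed genes of this system, 6 were in the table and passed the filter. With 2-77, 4 were lower and 0 higher, beside 11.8% and 10.6% of all genes. MT1X had 13.6, 13.6 and 13.4 CPM with 2-77, against 22.5, 25.7 and 24.5 CPM with P-16 and 20.7, 19.9 and 22.5 CPM with DMSO. The 2-77 libraries lay below all others, and P-16 overlapped DMSO (-0.84 ± 0.12, adjusted p = 1.84e-05). MT2A, MT1G and MT1F differed by -0.61 ± 0.12, -0.51 ± 0.07 and -0.46 ± 0.15. The call of MT1F was lost when 2-77 replicate 1, 2-77 replicate 3, P-16 replicate 1 or P-16 replicate 2 was left out, with values of -0.49, -0.39, -0.47 and -0.41. MT1 genes are near-identical copies, so the split of reads among them is uncertain. SLC30A1, a zinc exporter, did not pass (-0.06 ± 0.084, interval -0.24 to 0.11).

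Among genes higher with 2-77 that reached 4 CPM in one of the groups and whose libraries did not overlap, TXNIP had the largest difference, and the 5 genes higher by at least 4-fold all averaged under 4 CPM in each of the groups. TXNIP encodes an arrestin-like protein that binds thioredoxin and removes glucose transporters from the surface. It had 399, 398 and 401 CPM with 2-77, against 137, 129 and 129 CPM with P-16 and 126, 119 and 118 CPM with DMSO. The 2-77 libraries were about the same as each other and far above the P-16 and DMSO libraries, which lay close together (1.60 ± 0.036, adjusted p = 3.05e-24). Against DMSO the difference was 1.72 with 2-77 and 0.12 with P-16. ARRDC4, a related arrestin, had 30.6, 33.1 and 35.6 CPM with 2-77, against 17.7, 16.4 and 16.1 CPM with P-16 and 14.6, 14.9 and 15.2 CPM with DMSO. Its 2-77 libraries were all above 30 CPM, and no other library reached 18 (0.98 ± 0.074, adjusted p = 2.79e-11).

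The TXNIP promoter is shown because TXNIP had the largest positive difference by the rule used. It is the 250 bases before the start site (RefSeq, GRCh38.p14, minus strand of chr1:145996580-145996829). Of 2 windows for TXNIP, it is the window with a match to the carbohydrate response element, to which MondoA and MLX bind. Capitals mark the match to a pair of CACGNG boxes with 5 bases between them.
TXNIP: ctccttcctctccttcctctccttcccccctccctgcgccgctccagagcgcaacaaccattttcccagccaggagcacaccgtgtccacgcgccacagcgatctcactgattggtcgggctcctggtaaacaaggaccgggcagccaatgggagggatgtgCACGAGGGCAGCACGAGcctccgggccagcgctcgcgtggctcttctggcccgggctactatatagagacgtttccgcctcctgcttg
The match covers bases -88 to -72. Both strands were searched, and 0.0456% of windows of this length, 16 in all, hold the motif. Binding of MondoA or MLX to this site was not measured.

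TXNIP also stands on a list of genes of PI3K feedback and receptor tyrosine kinases. Of its 17 members tested, 6 were higher and 2 lower with 2-77, where 10.6% of all genes were higher and 11.8% lower. Besides TXNIP, those higher were PIK3IP1, an inhibitor of PI3K (0.40 ± 0.06), FOXO3 (0.35 ± 0.036), ERBB2, a receptor tyrosine kinase (0.31 ± 0.038), PIK3R3 (0.26 ± 0.033) and INSR, the insulin receptor (0.21 ± 0.049). ERBB2 averaged 399 ± 15.5 CPM with 2-77, against 322 ± 4.30 CPM with P-16 and 303 ± 1.82 CPM with DMSO. INPP4B, a lipid phosphatase that androgen induces, was lower (-0.78 ± 0.13), as was PIK3R1 (-0.20 ± 0.047).

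**Figure D3:**
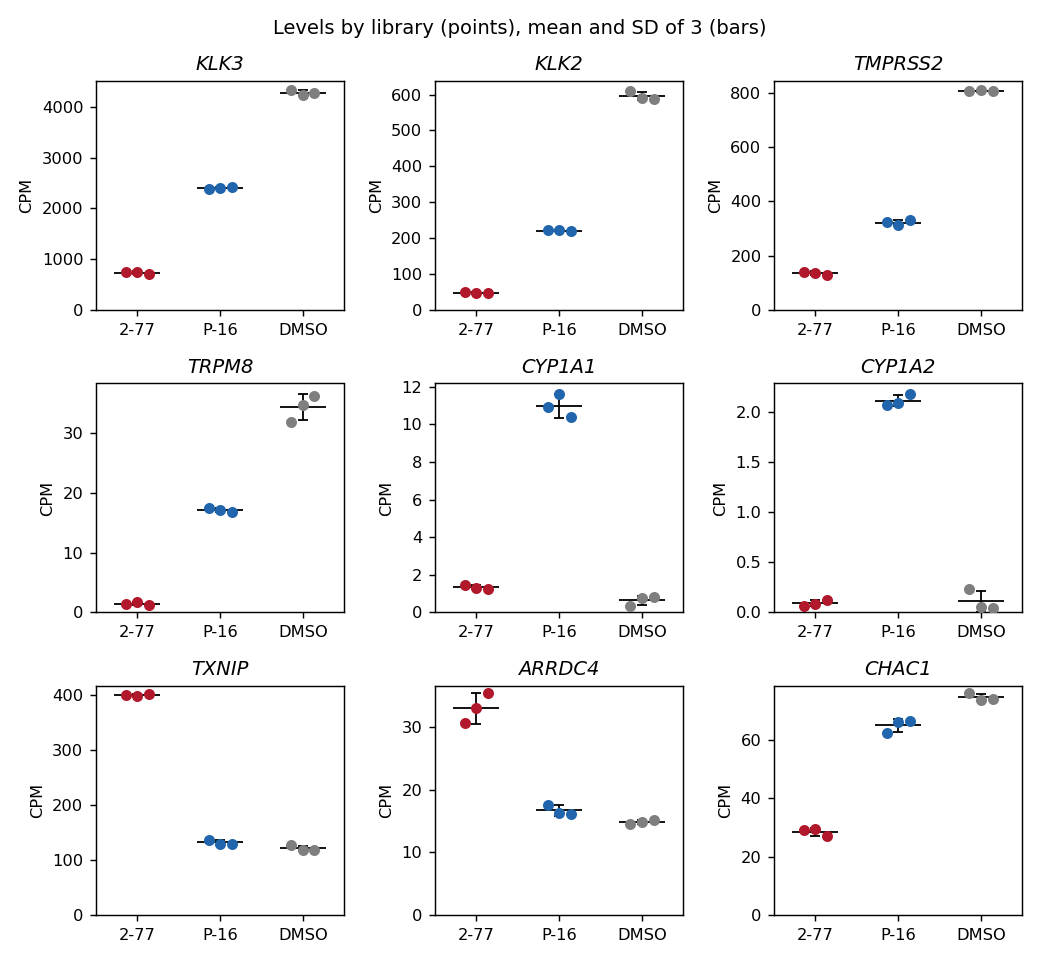
Level of 9 genes in each library (points, CPM) of 2-77, P-16 and DMSO, with the mean and SD of 3 libraries as bars. KLK3, KLK2, TMPRSS2 and TRPM8 are lowest with 2-77, CYP1A1 and CYP1A2 are high with P-16, TXNIP and ARRDC4 are high with 2-77, and CHAC1 is lowest with 2-77.

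Most genes tested of the integrated stress response were lower with 2-77. Of 26 members tested, 23 were lower and 0 higher, against 11.8% lower and 10.6% higher among all genes. The list's median was -0.39, and without 2-77 replicate 3, 22 members were called. CHAC1, which degrades glutathione, had 29.2, 29.3 and 26.9 CPM with 2-77, against 62.3, 66.1 and 66.4 CPM with P-16 and 76, 73.4 and 74 CPM with DMSO. The 2-77 libraries held fewer than 30 CPM each and the P-16 libraries more than 62 (-1.19 ± 0.063, adjusted p = 9.29e-15). TRIB3, a pseudokinase, had 155, 160.1 and 145 CPM with 2-77, against 236, 245 and 238 CPM with P-16 and 344, 335 and 357 CPM with DMSO. The 3 groups did not overlap, with 2-77 lowest and DMSO highest (-0.65 ± 0.039). PCK2, the mitochondrial PEP carboxykinase, averaged 229 ± 4.66 CPM with 2-77, against 358 ± 9.98 CPM with P-16 and 425 ± 11.8 CPM with DMSO (-0.64 ± 0.037). ATF4 itself averaged 628 ± 16.4 CPM with 2-77, against 828 ± 6.14 CPM with P-16 and 901 ± 15.7 CPM with DMSO (-0.40 ± 0.036, adjusted p = 1.26e-09).

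The upstream sequence of CHAC1 is shown as that of the member with the largest well-measured difference. It is the 250 bases before the start site (RefSeq, GRCh38.p14, plus strand of chr15:40953221-40953470), with TTGCATCA, the core of the amino acid response element to which ATF4 binds, in capitals.
CHAC1: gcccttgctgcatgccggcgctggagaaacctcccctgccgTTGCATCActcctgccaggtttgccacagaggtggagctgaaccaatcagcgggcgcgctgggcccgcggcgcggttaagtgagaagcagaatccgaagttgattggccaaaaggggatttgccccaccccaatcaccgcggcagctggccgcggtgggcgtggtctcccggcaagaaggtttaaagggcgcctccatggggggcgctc
The core lies at bases -209 to -202, and binding of ATF4 to it was not measured. On both strands it occurs in 0.772% of windows of this length, and 2 of the 21 members with a window, CHAC1 and FGF21, held it. None of the 5 matches shown for these genes overlapped a match to another of the 4 motifs searched.

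The enzymes of serine and asparagine synthesis were each lower by a similar amount, with PHGDH at -0.30 ± 0.035, PSAT1 at -0.33 ± 0.04, PSPH at -0.38 ± 0.046 and ASNS at -0.32 ± 0.035. MTHFD2 and SHMT2, mitochondrial enzymes of one-carbon metabolism, differed by -0.44 ± 0.041 and -0.30 ± 0.035. NUPR1, a stress-induced chromatin protein, had 316, 326 and 321 CPM with 2-77, against 441, 468 and 459 CPM with P-16 and 364, 361 and 356 CPM with DMSO. There P-16 lay above DMSO and 2-77 below it, with no overlap (-0.51 ± 0.037). GDF15, a secreted stress cytokine, averaged 1584 ± 96.6 CPM with 2-77, against 2311 ± 72.3 CPM with P-16 and 1944 ± 52.6 CPM with DMSO (-0.54 ± 0.045). FGF21, a hormone of nutrient stress, was at low levels (9, 6 and 10 counts with 2-77, against 28, 22 and 17 counts with P-16 and 19, 29 and 29 counts with DMSO), and its difference was -1.69 ± 0.45. ATF3, VLDLR and ALDH1L2 did not pass, and for ATF3, a factor induced by many stresses, the interval was -0.17 to 0.06. Against DMSO, 0 members were higher and 23 lower with 2-77, and 4 higher and 12 lower with P-16. Among all genes, 20.5% were higher and 20.2% lower with 2-77, and 12.4% and 11.6% with P-16.

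The unfolded protein response, the reaction to misfolded protein in the endoplasmic reticulum, followed in smaller size, with 13 of 20 members lower and 0 higher (median -0.18). The shares of all genes were 11.8% lower and 10.6% higher. HERPUD1, a part of the degradation machinery of the endoplasmic reticulum, had 129, 125 and 121 CPM with 2-77, against 172, 169 and 158 CPM with P-16 and 196, 179 and 183 CPM with DMSO. All 2-77 libraries lay below all P-16 libraries, and these below DMSO (-0.41 ± 0.042). XBP1, a transcription factor of this response, the chaperone gene HYOU1 and the secreted factor MANF differed by -0.32 ± 0.035, -0.33 ± 0.037 and -0.35 ± 0.043. HSPA5, the chaperone BiP, differed by -0.13 ± 0.033 (adjusted p = 0.00501), a call lost with library totals. CALR, a calcium-binding chaperone, did not pass (0.08 ± 0.034, interval 0.01 to 0.15).

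**Figure D4:**
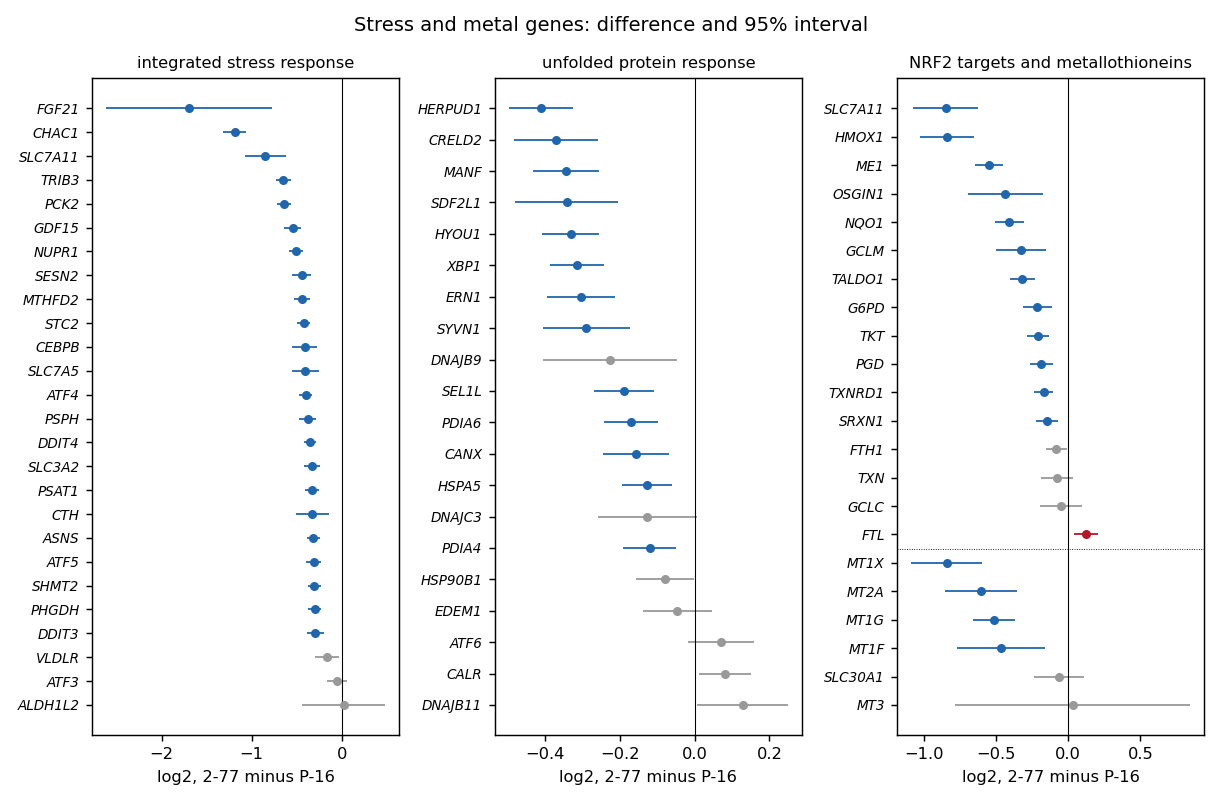
Log2 difference, 2-77 minus P-16 (points), with its 95% interval (bars), of the tested members of the integrated stress response, of the unfolded protein response, and of the NRF2 targets with the metallothionein list under the dotted line. Blue points were lower and red points higher with 2-77, grey points were not called, and FTL is the one red point.

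Most mitotic genes tested were lower with 2-77, by small amounts. Of 36 members tested, 27 were lower and 0 higher, against 11.8% lower and 10.6% higher among all genes. The list's median was -0.22, and without 2-77 replicate 3, 25 members were called. MKI67, the proliferation marker Ki-67, had 151, 148 and 152 CPM with 2-77, against 179.7, 178 and 187 CPM with P-16 and 224, 235 and 231 CPM with DMSO. The 3 groups were apart, in the order 2-77, P-16, DMSO from low to high (-0.27 ± 0.042, adjusted p = 2.11e-05). The spindle motor KIF20A, the cyclin CCNB1 and the ubiquitin-conjugating enzyme UBE2C differed by -0.42 ± 0.068, -0.23 ± 0.038 and -0.33 ± 0.058. PLK1, the polo-like kinase, averaged 40.7 ± 1.99 CPM with 2-77, against 51.6 ± 4.41 CPM with P-16 and 73.4 ± 3.40 CPM with DMSO (-0.34 ± 0.061). CDK1 and NDC80 did not pass: CDK1, the mitotic kinase, was at 0.01 ± 0.12 (interval -0.24 to 0.27) and the kinetochore gene NDC80 at -0.02 ± 0.079 (interval -0.18 to 0.14).

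Of 41 DNA replication genes, 9 were lower and 0 higher (median -0.09), and 36 of the 41 differences were below 0. The share called in either direction, 22%, was close to the 22.4% of all genes. But every call was lower, where 11.8% of all genes were lower and 10.6% higher. CDT1, which licenses replication origins, TK1, thymidine kinase, and RRM2, a subunit of ribonucleotide reductase, differed by -0.41 ± 0.062, -0.40 ± 0.057 and -0.24 ± 0.048. PCNA, the sliding clamp, did not pass (-0.05 ± 0.046, interval -0.15 to 0.04). Of 30 MYC targets and ribosome biogenesis genes, 13 were lower and 0 higher (median -0.10), again beside 11.8% and 10.6% of all genes. SRM, spermidine synthase, averaged 113 ± 5.83 CPM with 2-77, against 136 ± 1.89 CPM with P-16 and 148 ± 2.56 CPM with DMSO (-0.27 ± 0.041). TBRG4, a mitochondrial RNA-binding protein, and the ribosome assembly factors RRP9 and PES1 differed by -0.35 ± 0.064, -0.31 ± 0.054 and -0.22 ± 0.04.

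**Figure D5:**
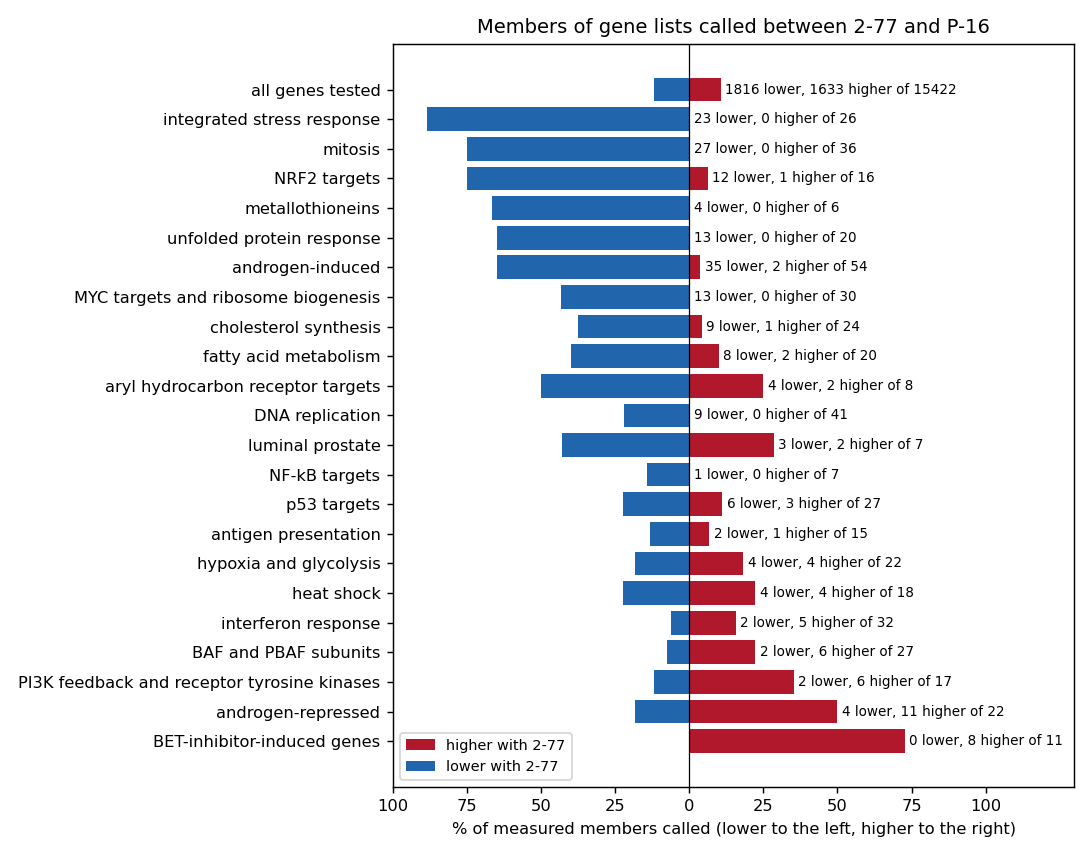
Share of tested members of each gene list that were called, lower with 2-77 to the left and higher to the right, for lists with at least 5 tested members, below the same share over all 15422 genes. The integrated stress response, mitosis and NRF2 lists reach furthest to the left and the BET-inhibitor-induced genes furthest to the right.

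Among genes of cholesterol synthesis and uptake, 9 of 24 were lower and 1 higher with 2-77 (median -0.11). In all genes tested, 11.8% were lower and 10.6% higher. The list's total of 10 called members fell to 6 without 2-77 replicate 3. SQLE, squalene epoxidase, was the member higher with 2-77 and averaged 43.8 ± 1.56 CPM with 2-77, against 39.3 ± 1.15 CPM with P-16 and 43.3 ± 2.40 CPM with DMSO (0.16 ± 0.053), a call lost without 2-77 replicate 1 or 3 or P-16 replicate 1 or 3, at 0.17, 0.13, 0.14 and 0.15. In fatty acid metabolism, 8 of 20 were lower and 2 higher (median -0.07), beside the same 11.8% and 10.6% of all genes. FASN, fatty acid synthase, differed by -0.19 ± 0.047, which did not pass with library totals, and the desaturase gene FADS2 by -0.26 ± 0.041, while for SCD, the stearoyl-CoA desaturase, the difference of 0.02 ± 0.032 did not pass (interval -0.05 to 0.09).

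Of 22 genes of hypoxia and glycolysis, 4 were higher and 4 lower with 2-77 (median -0.03), a share called of 36.4% beside 22.4% of all genes. Against DMSO the list's median was 0.46 with either compound. LDHA, lactate dehydrogenase, had 1916, 1898 and 1895 CPM with 2-77, against 1984, 1922 and 1956 CPM with P-16 and 1385, 1365 and 1359 CPM with DMSO. The 2-77 libraries lay just under the P-16 libraries, and all 6 above DMSO, but the difference did not pass (-0.04 ± 0.031, interval -0.10 to 0.03). VEGFA, the angiogenic growth factor, differed by -0.02 ± 0.039 (interval -0.10 to 0.06). PFKFB3, which makes the allosteric activator of glycolysis, was higher with 2-77, averaging 96.7 ± 1.97 CPM with 2-77, against 72.4 ± 2.27 CPM with P-16 and 40.1 ± 2.10 CPM with DMSO (0.42 ± 0.047), as was ADM, the peptide adrenomedullin (0.93 ± 0.2). SLC2A1, the glucose transporter GLUT1, was lower and had 111, 115.98 and 108 CPM with 2-77, against 142, 148 and 149 CPM with P-16 and 104, 110.0 and 106 CPM with DMSO. Its P-16 libraries were the highest, and 2-77 overlapped DMSO (-0.39 ± 0.048). HK2 and PDK1, hexokinase and a pyruvate dehydrogenase kinase, differed by -0.31 ± 0.041 and -0.22 ± 0.045.

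Of 18 heat shock genes, 4 were higher and 4 lower (median 0.0051), a share called of 44.4% beside 22.4% of all genes. HSPA1B and HSPA4, of the HSP70 class, were higher with 2-77 (0.20 ± 0.033 and 0.23 ± 0.038), and HSF1, the transcription factor, and BAG3, a cochaperone, were lower (-0.26 ± 0.054 and -0.20 ± 0.049). HSPA1B and HSPA1A are near-identical, so their counts are uncertain. Of 27 p53 targets, 3 were higher and 6 lower (median 0.04), a share called of 33.3% beside the same 22.4%. Their total of 9 fell to 5 without 2-77 replicate 3, P-16 replicate 2 or P-16 replicate 3. SESN1 was higher (0.32 ± 0.042) and PMAIP1, which encodes the cell death factor NOXA, lower (-0.55 ± 0.11). GDF15 and SESN2, also lower (-0.54 ± 0.045 and -0.45 ± 0.051), are already counted in the integrated stress response above. CDKN1A, the cell cycle inhibitor p21, had 324, 326 and 315 CPM with 2-77, against 305, 319.6 and 314 CPM with P-16 and 272, 271 and 271 CPM with DMSO. The compounds overlapped and lay above DMSO (0.04 ± 0.045, interval -0.05 to 0.13).

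Of 32 interferon-response genes, 5 were higher and 2 lower with 2-77 (median 0.12), a share called of 21.9% that is close to the 22.4% of all genes, and the total of 7 fell to 4 without P-16 replicate 1. UBE2L6, which conjugates ISG15, and the factor IRF1 were higher (0.58 ± 0.16 and 0.49 ± 0.14), and OAS3, an RNA sensor, was lower (-0.37 ± 0.059). The call of UBE2L6 was lost without 2-77 replicate 2 or P-16 replicate 3, at 0.49 and 0.51, and that of IRF1 without 2-77 replicate 2 or P-16 replicate 1 or 2, at 0.42, 0.40 and 0.47. Of 15 antigen presentation genes, 1 was higher, the peptide loading gene TAPBP (0.24 ± 0.046), and 2 lower, NLRC5 (-0.45 ± 0.1) and TAP2 (-0.25 ± 0.057), a share called of 20%, again close to that of all genes. Of 7 NF-kB genes tested, NFKB1 was the one called, lower with 2-77 (-0.15 ± 0.049), and that call was lost with library totals and without 2-77 replicate 2, 2-77 replicate 3, P-16 replicate 1 or P-16 replicate 3.

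Of 27 subunits tested of the BAF and PBAF remodelling complexes, of which PBAF holds BRD7, 6 were higher and 2 lower with 2-77 (median 0.03). That is a share called of 29.6%, beside 22.4% of all genes, and the called differences lay between -0.17 and 0.48. BRD7 had 63, 61.1 and 61.5 CPM with 2-77, against 51.6, 54.2 and 55.7 CPM with P-16 and 58.1, 59.8 and 54.1 CPM with DMSO. The 2-77 libraries lay above the P-16 libraries, and DMSO overlapped P-16 (0.20 ± 0.061, adjusted p = 0.0174). Its call was lost without 2-77 replicate 1 or P-16 replicate 1, at 0.19 and 0.17. BRD9, the bromodomain subunit of the non-canonical BAF complex, averaged 40.0 ± 0.550 CPM with 2-77, against 35.3 ± 1.10 CPM with P-16 and 32.7 ± 0.827 CPM with DMSO (0.18 ± 0.056), and its call was lost without 2-77 replicate 2 or P-16 replicate 1 or 2, at 0.17, 0.18 and 0.16. ARID2 and PHF10, which with BRD7 and PBRM1 mark PBAF, differed by 0.16 ± 0.038 and 0.23 ± 0.063, the second not called without P-16 replicate 2, at 0.18. PBRM1, the polybromo subunit, differed by -0.02 ± 0.04, which did not pass (interval -0.10 to 0.07). SMARCD3 showed the largest difference of the list and averaged 37.3 ± 2.42 CPM with 2-77, against 26.8 ± 1.72 CPM with P-16 and 17 ± 0.753 CPM with DMSO (0.48 ± 0.069). For the ATPases SMARCA4 and SMARCA2 the intervals were -0.02 to 0.13 and -0.19 to 0.01. The total of 8 called subunits fell to 5, 3 and 5 without P-16 replicate 1, 2 or 3.

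Genes that inhibitors of BET bromodomains are known to induce, mostly histone genes and HEXIM1, were higher with 2-77 in 8 of 11 cases and lower in 0 (median 0.27). The shares of all genes were 10.6% higher and 11.8% lower. H1-2, a linker histone gene, had 83.1, 85 and 76.7 CPM with 2-77, against 57.2, 62.1 and 59.6 CPM with P-16 and 61.3, 58 and 60.3 CPM with DMSO. The 2-77 libraries lay above the others, and P-16 overlapped DMSO (0.45 ± 0.048, adjusted p = 3.02e-08). H2BC21, H2BC5 and H4C8, core histone genes, differed by 0.29 ± 0.036, 0.49 ± 0.092 and 0.54 ± 0.11. HEXIM1, which holds the elongation factor P-TEFb inactive, averaged 114 ± 5.24 CPM with 2-77, against 103 ± 1.16 CPM with P-16 and 86.7 ± 3.11 CPM with DMSO (0.14 ± 0.042), a call lost without 2-77 replicate 3 at 0.11. The total of 8 fell to 5 without 2-77 replicate 1 or P-16 replicate 2. Many histone mRNAs lack a poly(A) tail, so their measured level also depends on how mRNA was captured, which was not tested.

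The 12 largest negative and 12 largest positive differences were taken among called genes that reached a mean of 4 CPM in one of the groups and whose libraries did not overlap. Over all genes, the 2-77 libraries lay wholly above the P-16 libraries in 19.5% of genes and wholly below in 19.6%. Besides genes described above, the negative ones held GRIN3A, a subunit of the NMDA glutamate receptor, ST6GALNAC1, a sialyltransferase, AADAT, an aminotransferase of the kynurenine route, STYXL2, a pseudophosphatase, FOXN4, a forkhead factor, and the noncoding RNA BCYRN1. GRIN3A had 1.49, 2.07 and 2.15 CPM with 2-77, against 14.4, 14.7 and 13.7 CPM with P-16 and 34.9, 32.8 and 33.1 CPM with DMSO. Its groups were wide apart (-2.93 ± 0.11, adjusted p = 3.43e-18). ST6GALNAC1 and AADAT differed by -2.31 ± 0.17 and -1.60 ± 0.079, and STYXL2 by -1.59 ± 0.14.

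FOXN4 had 1.62, 1.73 and 0.650 CPM with 2-77, against 5.70, 5.48 and 6.70 CPM with P-16 and 1.46, 1.11 and 1.11 CPM with DMSO. The P-16 libraries were high, and the 2-77 libraries overlapped DMSO (-2.15 ± 0.24, against DMSO 0.14 with 2-77 and 2.28 with P-16). BCYRN1 had 15.5, 14.4 and 15.8 CPM with 2-77, against 61.3, 77.3 and 33.2 CPM with P-16 and 12.6, 13.7 and 25.9 CPM with DMSO. Its P-16 libraries were widely spread, its sequence is close to that of many Alu copies, and its call (-1.92 ± 0.58, adjusted p = 0.0327) was lost without each 2-77 library and without P-16 replicate 1 or 2, at -1.93, -1.88, -1.94, -1.87 and -1.65. CD55, which protects cells from complement, averaged 3.53 ± 0.907 CPM with 2-77, against 6.70 ± 0.924 CPM with P-16 and 7.85 ± 0.269 CPM with DMSO (-0.92 ± 0.15).

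The positive ones, after TXNIP, held genes of the cell surface, matrix and cytoskeleton. VWA2, a matrix protein gene, had 25, 23.4 and 25.5 CPM with 2-77, against 9.72, 9.94 and 11.8 CPM with P-16 and 5.35, 6.52 and 6.02 CPM with DMSO. MAN1A1, a mannosidase that trims N-glycans in the Golgi, had 24.9, 28.2 and 28 CPM with 2-77, against 12.3, 11.4 and 12 CPM with P-16 and 5.70, 4.70 and 3.70 CPM with DMSO. In both the order of the groups was 2-77, P-16, DMSO from high to low, with no overlap (1.24 ± 0.094 and 1.18 ± 0.11). MYLK, myosin light chain kinase, averaged 19.9 ± 1.21 CPM with 2-77, against 9.43 ± 1.13 CPM with P-16 and 5.12 ± 0.500 CPM with DMSO (1.07 ± 0.091). TUBA1A, an alpha-tubulin, averaged 53.3 ± 3.56 CPM with 2-77, against 26.2 ± 0.607 CPM with P-16 and 14.7 ± 0.995 CPM with DMSO (1.03 ± 0.076). SYTL2, a factor of vesicle docking, SPTBN1, a spectrin, COL5A1, a collagen, and PLD1, phospholipase D, differed by 1.09 ± 0.1, 1.04 ± 0.16, 1.09 ± 0.22 and 0.99 ± 0.16. GUSBP17, a pseudogene with near-identical copies, also met the rule (1.37 ± 0.25), and its counts are uncertain.

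Markers of other cell types gave no shared direction. Of 7 luminal markers, 3 were lower with 2-77, among them KLK3, and 2 were higher, KRT8 (0.20 ± 0.04) and FOLH1, which encodes prostate-specific membrane antigen (0.18 ± 0.033). Among all genes, 11.8% were lower and 10.6% higher. The basal keratin KRT14 had 1, 0 and 0 counts with 2-77, against 20, 8 and 6 counts with P-16 and 36, 22 and 39 counts with DMSO, and it was called lower with 2-77. DESeq2 gave it no adjusted p, and with only the 2-77 and P-16 groups in the fit it did not pass the filter. From these counts the ratio of 2-77 to P-16 was 0.0239, with an exact interval of 0.000589 to 0.143. ENO2, a neuroendocrine marker and glycolytic enzyme, averaged 113 ± 1.27 CPM with 2-77, against 89.8 ± 0.332 CPM with P-16 and 40.8 ± 0.965 CPM with DMSO (0.33 ± 0.048). The mesenchymal markers VIM and COL1A1 were higher with 2-77 (0.46 ± 0.076 and 0.34 ± 0.079), and FN1, fibronectin, was lower and averaged 584 ± 4.41 CPM with 2-77, against 924 ± 4.99 CPM with P-16 and 973 ± 10.8 CPM with DMSO (-0.66 ± 0.034). Of 6 immune markers, CD68 was the one tested, and it did not pass (0.19 ± 0.12, interval -0.07 to 0.44). Luminal markers summed to 4720 to 4817 CPM with 2-77, 6520 to 6535 CPM with P-16 and 8526 to 8589 CPM with DMSO. Within these sums KLK3, also counted as androgen-induced, averaged 737 ± 23.7, 2399 ± 15.3 and 4277 ± 46.6 CPM in the same order. FOLH1 went the other way, with 1717 ± 8.67, 1519 ± 32.4 and 1317 ± 13.6 CPM, so the luminal sums do not describe each marker. Basal markers summed to 12.8 to 16 CPM with 2-77, 14.2 to 14.5 CPM with P-16 and 15.2 to 17.2 CPM with DMSO. Neuroendocrine markers, nearly all ENO2, summed to 115 to 118 CPM with 2-77, 92.2 to 93.4 CPM with P-16 and 42.4 to 44.9 CPM with DMSO. Mesenchymal markers, mostly FN1, summed to 636 to 643 CPM with 2-77, 966 to 972 CPM with P-16 and 1012 to 1034 CPM with DMSO. CD68 summed to 5.01 to 5.51 CPM with 2-77, 4.14 to 4.91 CPM with P-16 and 6.17 to 6.64 CPM with DMSO. The part of these markers in the results was not tested.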

How the data were processed

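RNA of LNCaP cells was made into libraries with a stranded mRNA kit, per the labels' protocols. The deposited values are expected counts (estimated counts per gene, not whole and not scaled to depth). The submitters' processing notes name STAR, Partek, DESeq2 and hg38, without versions. The counting program, annotation, strand setting and filters are not given in the sources used here. Lengths in the file span introns, so levels were not compared between genes. All 18 count columns were matched to samples by name, and 0 were left over.

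The counts were rounded to whole numbers and all 18 libraries (6 groups of 3) entered one edgeR fit (version 4.0.16, R 4.3.3), with 12 residual degrees of freedom and a common biological coefficient of variation of 0.0573. filterByExpr kept 15422 of 20145 genes, and totals were scaled by TMM. The robust quasi-likelihood F test was two-sided, with Benjamini-Hochberg adjustment over all genes tested. Intervals are at 95%. Principal components were taken of log2 CPM with a prior count of 2. Reads carry no molecular identifiers, so intervals from counts cover counting error only. Replicates of a group differed by more than counting noise, most for 2-77 replicate 3. Same-number libraries of 2-77 and P-16 had residual correlations of -0.0233, -0.0592 and -0.157 and were treated as unpaired.

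Members, the 27 gene lists (536 genes, 16 on more than 1 list, 481 tested) and the tests were chosen with earlier results of these data known. Named genes were the 12 largest differences per direction (called, a mean of 4 CPM or more in one group, libraries apart, clone and locus names passed over), the 4 members with the smallest p in each list with a share of at least 0.25 called, and a panel. Further members were named for their role after their values were seen. Mitochondrial genes were not analysed here, and some listed genes are not reported here, though they count in the totals of their lists. Promoters came from a RefSeq table (GRCh38.p14).

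In simulated data for 2-77 minus P-16 (15312 genes), 50 genes averaging above 1 CPM were changed at each fold. All other genes were set equal between 2-77 and P-16, and each gene had the same spread in all libraries. The share of changed genes called was 74%, 82%, 96% and 100% at folds of 1.25, 1.5, 2 and 4. Unchanged genes made up 4.35% of the 184 calls, against 3449 calls in the data. These shares do not cover genes of lower level or a library that stands apart from its group. Alternatives were DESeq2 1.42.0, RLE factors, library totals, no filter, a stricter filter (1 CPM), only the groups compared, a replicate block and each library left out. A fit without ribosomal RNA genes was added after seeing the data. Plots used matplotlib 3.10.9 and Python 3.11.15.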

Additional observations from a re-analysis of the deposited data

How the results depend on the processing

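The count of genes differing between 2-77 and P-16 was 3112 to 3729 under the alternatives that kept all libraries and 2440 to 2948 with 1 library left out, against 3449. With DESeq2, 29 genes were higher by at least 2-fold, in place of 53. Higher genes were 41.6% of those called with DESeq2 and 60.5% with library totals, against 47.3%. The libraries share only a replicate number: same-number pairs correlated by -0.157 to -0.0233, and the fit with the replicate block called 3250 genes, 3219 of them also called without it. Among gene lists, leaving out 1 library gave 3 to 6 called BAF and PBAF subunits, 5 to 7 BET-inhibitor-induced genes, 6 to 10 cholesterol genes, 4 to 7 interferon genes, 0 to 1 NF-kB genes and 5 to 8 p53 targets. The basal list had 0 called with DESeq2, which gave no adjusted p for KRT14, and with only the groups compared, where KRT14 did not pass the filter. The NF-kB list had 0 with library totals. Of 2274 values of 163 named genes under the alternatives, 2218 kept direction and call, 40 lost the call, 2 (both MLXIP) gained it and 14 changed sign, all of genes that were not called. With library totals the log2 difference of PBRM1 was 0.0093, the log2 difference of NDC80 was 0.0071, that of VEGFA 0.0082 and that of ZBTB10 0.017. With 1 library left out, CDK1 ranged from -0.060 to 0.079, NDC80 from -0.069 to 0.055, PBRM1 from -0.053 to 0.010, SLC30A1 from -0.14 to 0.017 and ZBTB10 from -0.084 to 0.035. The cause of these changes was not tested. Depth limits genes of few counts, since 3 counts equal 0.0973 to 0.168 CPM in a 2-77 or P-16 library.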

Other observations

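Some gene families were noticed after their values were seen. All 9 measured GUSBP pseudogenes, partial copies of the glucuronidase gene GUSB, were higher with 2-77, where 10.6% of all genes were. Their median was 0.72, and 6 of them lie on chromosome 5. GUSBP15 averaged 86 ± 0.867 CPM with 2-77, against 54.3 ± 3.74 CPM with P-16 and 36.6 ± 0.982 CPM with DMSO (0.66 ± 0.05, edgeR adjusted p = 3.3e-11), and GUSBP16 averaged 53.9 ± 3.78 CPM with 2-77, against 31.2 ± 2.42 CPM with P-16 and 22.6 ± 3.17 CPM with DMSO (0.79 ± 0.078). They are near-identical, so their counts are not independent of each other. Of 40 clustered histone genes tested, 13 were higher and 0 lower with 2-77 (median 0.21), against 10.6% and 11.8% of all genes. This family overlaps the BET-inhibitor-induced genes above, with H1-2, H2BC21, H2BC5 and H4C8 among those in both. H2AC18 and H2AC19, both called higher, have the same deposited span, so their counts may not be independent of each other. The limit on histone mRNAs without a poly(A) tail, given above, holds here too. H3C6 averaged 29.8 ± 1.22 CPM with 2-77, against 23.9 ± 0.128 CPM with P-16 and 21 ± 0.881 CPM with DMSO (0.32 ± 0.064) and H4C15 67.7 ± 1.95 CPM with 2-77, against 56.2 ± 2.72 CPM with P-16 and 60.1 ± 2.98 CPM with DMSO (0.27 ± 0.048).

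All 5 kallikrein-locus genes tested were lower with 2-77, where 11.8% of all genes were. KLK2, KLK3 and KLK4 among them are already counted as androgen-induced genes above. The others were KLK15 (-0.95 ± 0.2) and the pseudogene KLKP1, which averaged 2.15 ± 0.174 CPM with 2-77, against 4.37 ± 0.157 CPM with P-16 and 4.25 ± 0.822 CPM with DMSO (-1.02 ± 0.18). Of the genes around TXNIP, the arrestin ARRDC3 was higher with 2-77 (0.34 ± 0.05) and ARRDC1 lower (-0.25 ± 0.05). MLX, the partner of MondoA, was lower (-0.18 ± 0.042), and MLXIP, which encodes MondoA, did not pass (0.11 ± 0.043, interval 0.02 to 0.20). UGT1A1, which conjugates bilirubin, averaged 0.177 ± 0.0164 CPM with 2-77, against 1.24 ± 0.0536 CPM with P-16 and 0.427 ± 0.171 CPM with DMSO (-2.76 ± 0.59, adjusted p = 0.00114), and its transcript shares its last exons with other UGT1A genes. Its 2-77 libraries, at 0.195, 0.173 and 0.163 CPM, lay near the level of 3 counts, which is 0.0973, 0.13 and 0.122 CPM in them. UGT1A6, the other UGT1A gene tested, also had few counts and did not pass (0.28 ± 1.1, edgeR adjusted p = 0.894).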
